A study of Mus musculus with 6 samples.

Results

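The cytosolic ribosomal protein genes encode the proteins of the large (60S) and small (40S) ribosomal subunits. Protein-coding genes whose symbols follow the Rpl and Rps naming scheme were taken, with Rplp0, Rplp1, Rplp2 and Rpsa, leaving out pseudogenes and the Rps6k kinases. This gave 83 genes of the 17741 rows of the expression table, 51 of the large and 32 of the small subunit. The rule matched 84 protein-coding symbols, of which Rpl32l had no row here. The libraries came from whole C57BL/6 mouse fetuses collected at 9.0 dpc (days post coitum), 3 labelled WT and 3 labelled KLF12 overexpression, called WT 1 to 3 and KLF12 1 to 3. Its purpose was to study neural tube defects that arise when KLF12, a Krüppel-like zinc-finger repressor, is too abundant. The labels name no transgene, promoter or driver for the overexpression. They also do not say whether a library is 1 fetus or a pool, so p-values measure the spread between these libraries, which may be technical.

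Ribosomal proteins are made in nearly matched amounts, assembled with ribosomal RNA in the nucleolus, and needed in every growing cell. Their mRNAs are terminal oligopyrimidine (TOP) mRNAs: transcription starts at a C that is followed by a run of pyrimidines, and this run lets mTORC1 signalling set how strongly the mRNA is translated. Loss of single ribosomal proteins in the mouse embryo is known to give tissue-selective defects, among them homeotic changes of the axial skeleton in Rpl38 mutants and tail, limb and pigment defects in Rpl24, Rps7, Rps19 and Rps20 mutants.

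The promoter sequences of the genes on which the results turn are shown here, because a shared start-site motif is the best known common feature of these genes. RefSeq promoter entries (build GRCm38.p6) were found for 63 of the 83 genes, with 75 annotated starts. The 8 lines give 30 bases before and 25 bases from the annotated start on, 5′ to 3′ on the gene's strand. Capitals mark a pyrimidine run, an unbroken stretch of C and T counted from its first C and at least 6 bases long, whose first C lies within 10 bases before to 20 after the start. A stretch that begins farther upstream is not marked or counted, even where it reaches the start. The lines are Rps27l and its canonical form Rps27, Rps18 and Rpl39, whose groups did not overlap, Rpl38 with its role in the embryonic axis, Rpl28 and Rpl35, which lay on opposite sides of the family's median, and Rpl41, the large subunit gene with the highest mean level. No run was found in the lines of Rpl41 and Rps27l.
Rps27l, chr9:66946056-66946110, plus strand: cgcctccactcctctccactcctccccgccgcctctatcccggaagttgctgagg
Rps27, chr3:90213624-90213678, minus strand: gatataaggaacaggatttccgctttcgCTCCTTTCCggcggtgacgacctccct
Rps18, chr17:33955641-33955695, minus strand: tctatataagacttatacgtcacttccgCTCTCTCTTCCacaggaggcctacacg
Rpl39, chrX:37085198-37085252, minus strand: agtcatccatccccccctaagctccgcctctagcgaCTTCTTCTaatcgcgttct
Rpl38, chr11:114668550-114668604, plus strand: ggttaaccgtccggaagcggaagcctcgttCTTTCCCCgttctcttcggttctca
Rpl28, chr7:4792935-4792989, plus strand: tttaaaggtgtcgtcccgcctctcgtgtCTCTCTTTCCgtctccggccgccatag
Rpl35, chr2:39005107-39005161, minus strand: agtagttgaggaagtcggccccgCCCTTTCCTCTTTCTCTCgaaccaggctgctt
Rpl41, chr10:128549144-128549198, minus strand: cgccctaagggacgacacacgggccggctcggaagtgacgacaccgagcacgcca

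A pyrimidine run was found at 36 of the 75 starts (48.0%), in 34 of the 63 genes, against 23.7% of all 32851 annotated mouse starts. Runs in Rps18, Rps27, Rpl28 and Rpl38 began at or within 2 bases of the annotated start. In Rps27l a pyrimidine stretch begins upstream of the window and ends before the start. Over the whole entry, 250 bases before to 50 after the start, the letters CCGGAAG, an ETS-type core, occurred on either strand in 36.0% of the genes' starts and 8.86% of all starts. CACGCCC, of the kind that Krüppel-like factors bind in general, occurred in 17.3% against 8.44%. CAGTGGG, the letters of the AP-2rep site (AP-2rep is another name of KLF12), occurred at 4 of 75 starts, 5.33% against 7.05%. The reverse complement of CCGGAAG and the end of CACGCCC can share bases with a pyrimidine run. A match describes the sequence and is not a binding site, and the annotated starts may miss the start used in the fetus.

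FPKM (fragments per kilobase of transcript, scaled to the mapped fragments of the library) summed to 528236 to 635381 per library. From the step that 1 fragment makes in low values, depth was estimated at 15700000 to 17900000 fragments per library, with a weak signal. Klf12 was at 1.99, 2.11 and 1.32 FPKM in WT and at 16.44, 15.15 and 23.94 FPKM in the KLF12 libraries (log2 difference 2.78, limma adjusted p = 0.00113; exact permutation p = 0.1, the smallest that 3 against 3 allows). Its levels follow the labels in all 6 libraries. KLF12 3 stood apart from KLF12 1 and 2, with correlations of 0.957 and 0.951 over log2 values of all genes tested, while KLF12 1 and 2 correlated at 0.972. Results are therefore given by library.

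No ribosomal protein gene was called different between KLF12 overexpression and WT, and the KLF12 libraries lay on both sides of WT. In KLF12 1 and 2 most of these genes were above every WT library, and in KLF12 3 most were below every WT library. Of the 83 genes, 80 had a mean of at least 1 FPKM and were tested, 48 large and 32 small. In limma on log2(FPKM + 1), with p-values adjusted over 12141 genes, 0 of 80 passed 0.05, where 0.733% of all genes did. At an unadjusted limma p under 0.05, 2 of 80 passed, Rps27l and Rps18, against 10.9% of all genes. The 3 genes below the filter were tissue-restricted paralogues. Rpl39l was listed at 1.08 and 1.17 FPKM in KLF12 1 and 2 and at 0 in the other libraries, and Rpl3l and Rpl10l did not exceed 0.28 FPKM.

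The split within the KLF12 group was shared by both subunits. KLF12 3 lay below all WT libraries for 76 of 80 genes, 45 of 48 large and 31 of 32 small, where 31.8% of all genes did so. KLF12 1 and 2 both lay above all WT libraries for 66 of 80, against 16.4% of all genes. Both held for 64 of 80 genes, 34 large and 30 small, against 4.51% of all genes. The median deviation from the WT mean over large subunit genes was 0.18, 0.20 and -0.37 on the log2 scale in KLF12 1, 2 and 3. For the small subunit it was 0.21, 0.23 and -0.39, and for all genes tested it was -0.05, -0.01 and 0.04. The resulting median differences between the groups were 0.0025 for the large subunit, 0.013 for the small and -0.016 for all genes, so the group means hide shifts that are each larger than the spread of WT. These genes share libraries and many share reads, so they are not independent replicates of the pattern.

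**Figure D1:**
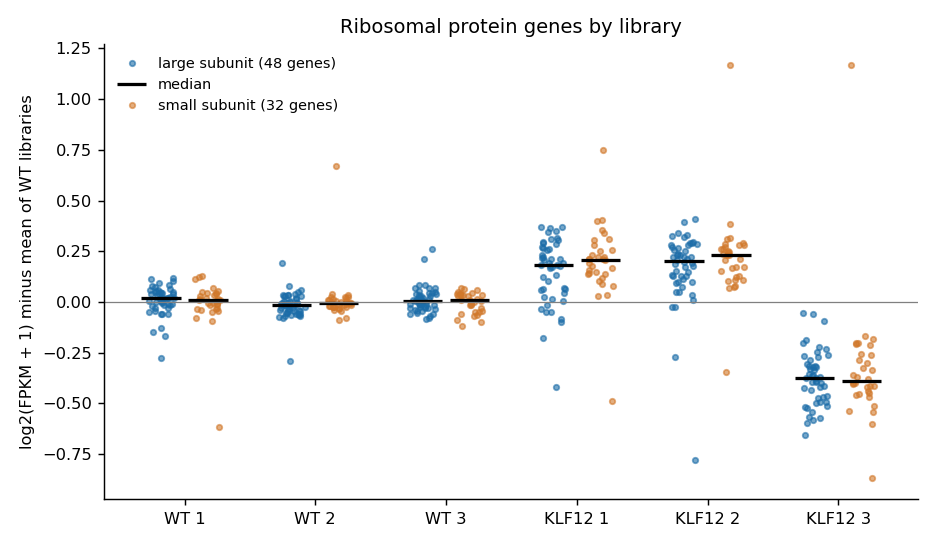
Each point is 1 ribosomal protein gene in 1 library, as log2(FPKM + 1) minus that gene's mean over the 3 WT libraries, for 48 large subunit genes (blue) and 32 small subunit genes (orange); black bars are medians. The clouds of KLF12 1 and 2 sit above 0, with medians of 0.18 to 0.23, and that of KLF12 3 below 0, with medians of -0.37 and -0.39.

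The family made up a large part of the measured transcriptome, with 60 of its genes among the 100 rows of highest mean FPKM. Its summed FPKM was 23.2%, 22.9% and 22.7% of the total in WT 1, 2 and 3, and 25.8%, 25.1% and 20.3% in KLF12 1, 2 and 3. The group means were 22.95 ± 0.235% and 23.75 ± 2.98% (SD, n = 3 each), so the spread within the KLF12 group exceeded the difference of 0.797 percentage points. Without KLF12 3 the difference was 2.51 percentage points, and without KLF12 1 it was -0.219. In whole-fetus RNA a change in the number of cells with many ribosomes and a change in mRNA per cell cannot be told apart. Among rows with a mean of at least 1000 FPKM, 55 of 62 ribosomal protein genes had KLF12 1 and 2 above and KLF12 3 below WT, as did 6 of 7 rows without a gene name (labelled BGI_novel) and 10 of 35 other rows.

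**Figure D2:**
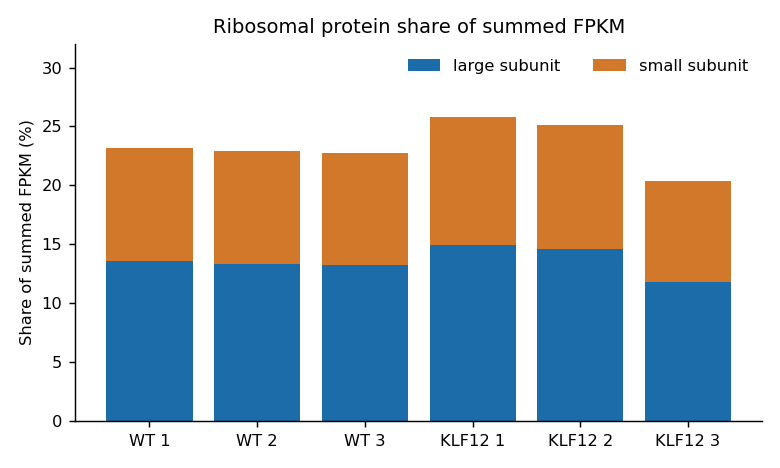
Stacked bars give the summed FPKM of large (blue) and small (orange) subunit genes as a percentage of the FPKM of all rows in each library. The WT bars reach 22.7 to 23.2%, KLF12 1 and 2 reach 25.8% and 25.1%, and KLF12 3 reaches 20.3%.

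The 2 subunits kept close to a fixed ratio in all 6 libraries while the level of both moved. Mean log2(FPKM + 1) over large subunit genes minus that over small subunit genes was -0.138, -0.180 and -0.137 in WT and -0.202, -0.208 and -0.195 in the KLF12 libraries. All 3 KLF12 values were lower, with means of -0.152 ± 0.025 and -0.201 ± 0.0067 (SD, n = 3) and a difference of -0.05. This small offset rested on Rps18: without it the difference was -0.017 and the groups overlapped, at -0.271, -0.273 and -0.253 in WT and -0.298, -0.291 and -0.260 in KLF12. Medians in place of means also gave -0.017 and overlapping groups. As a ratio of summed FPKM, large over small was 1.402, 1.384 and 1.387 in WT and 1.383, 1.392 and 1.372 in KLF12, again overlapping. These 3 summaries were added after the values were seen.

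Rps2, a small subunit protein near the mRNA entry channel and the most abundant member of that subunit, shows the common pattern. It was at 4899, 4772 and 4915 FPKM in WT and at 5603, 5704 and 4054 FPKM in KLF12 1, 2 and 3. KLF12 1 and 2 were above and KLF12 3 below every WT library, and the log2 difference of 0.06 ± 0.184 (SE) had a limma adjusted p of 0.956. Rps12 and Rps26, the next most abundant of the small subunit, had the same order of libraries. Rps12 was at 3563, 3455 and 3627 FPKM in WT and 3906, 3744 and 2693 FPKM in KLF12. Rps26, which contacts mRNA at the exit channel, was at 3404, 3364 and 3489 FPKM in WT and 3868, 4037 and 2582 FPKM in KLF12.

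In the large subunit the highest means were those of Rpl41, the shortest ribosomal protein, and of the stalk genes Rplp1 and Rplp0. Rpl41 was at 4977, 5014 and 4869 FPKM in WT and at 5172, 5279 and 3513 FPKM in KLF12. KLF12 1 and 2 were only slightly above WT, and KLF12 3 was far below.

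The acidic stalk, which recruits the elongation factors, is built on Rplp0 with Rplp1 and Rplp2 bound to it, and 2 of these 3 genes had the common split. Rplp0 was at 3106, 2819 and 2913 FPKM in WT and at 3614, 3589 and 2527 FPKM in KLF12. Rplp1 was at 4817, 4271 and 4380 FPKM in WT and at 5035, 5097 and 3145 FPKM in KLF12. For both, KLF12 1 and 2 were above and KLF12 3 below every WT library. Rplp2 was at 1670, 1955 and 1945 FPKM in WT and at 1786, 1898 and 1736 FPKM in KLF12. All KLF12 values of Rplp2 lay within the WT range, and none of the 3 genes was called by limma (adjusted p 0.887, 0.966 and 0.963 for Rplp0, Rplp1 and Rplp2).

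Rps27l, the paralogue of Rps27 and a known p53 target gene, had the lowest log2 difference of the family. It was at 490, 528 and 540 FPKM in WT and at 370, 408 and 284 FPKM in KLF12 1, 2 and 3. Every KLF12 library was below every WT library, also KLF12 1 and 2, where most of the family was higher. The means were 519 ± 25.8 and 354 ± 63.8 FPKM (SD, n = 3), a log2 difference of -0.57 ± 0.153 (SE) that did not pass in limma (adjusted p = 0.180). It did pass without KLF12 3 (-0.42, limma adjusted p = 0.0399), with array weights (-0.50, 0.00846) and with quantile normalization (-0.49, 0.0327). Under the last of these it was the only member called, where 0.577% of all genes were called lower.

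The canonical Rps27, which carries a zinc finger at the 40S surface, had the common split. It was at 1540, 1598 and 1638 FPKM in WT and at 1710, 1673 and 1149 FPKM in KLF12, so only KLF12 3 was below WT. Rps27l as a percentage of Rps27 was 31.9%, 33.0% and 33.0% in WT and 21.6%, 24.4% and 24.7% in KLF12. The ratio was lower in each KLF12 library and nearly equal among them (means 32.6 ± 0.666% and 23.6 ± 1.7%), including KLF12 3. The other paralogue pairs did not separate the groups. Rpl22l1 was at 186.8%, 199% and 258.6% of Rpl22 in WT and 172.5%, 189.1% and 176.2% in KLF12, and Rpl7l1 at 5.25%, 5.31% and 4.84% of Rpl7 in WT and 4.23%, 4.98% and 5.90% in KLF12.

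Rps18, a protein of the 40S head, was the 1 gene with every KLF12 library above every WT library. Levels were 74.8, 184 and 111 FPKM in WT and 194, 261 and 261 FPKM in KLF12. The lowest KLF12 library was just above the highest WT library, and KLF12 3 was as high as KLF12 2, against the pattern of the family. The means were 123 ± 55.5 and 239 ± 38.2 FPKM (SD, n = 3), a log2 difference of 1.03 ± 0.283 (SE) with a limma adjusted p of 0.189. The WT libraries differed widely among themselves. Under symbols ending in -ps and a number, the only form counted, 6 pseudogene copies of Rps18 are annotated. How the authors' alignment shared reads between the gene and such copies is not given, so the level of Rps18 is uncertain.

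Rpl39, which lines the exit tunnel of the 60S subunit, was the other gene whose groups did not overlap. It was at 1181, 1161 and 1160 FPKM in WT and at 1128, 1146 and 841 FPKM in KLF12. KLF12 1 and 2 were only just below WT, and KLF12 3 made most of the log2 difference of -0.18 ± 0.154 (SE; limma adjusted p = 0.750). In all, the groups of 3 of 80 genes (3.75%) did not overlap, against 16.9% of all genes.

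**Figure D3:**
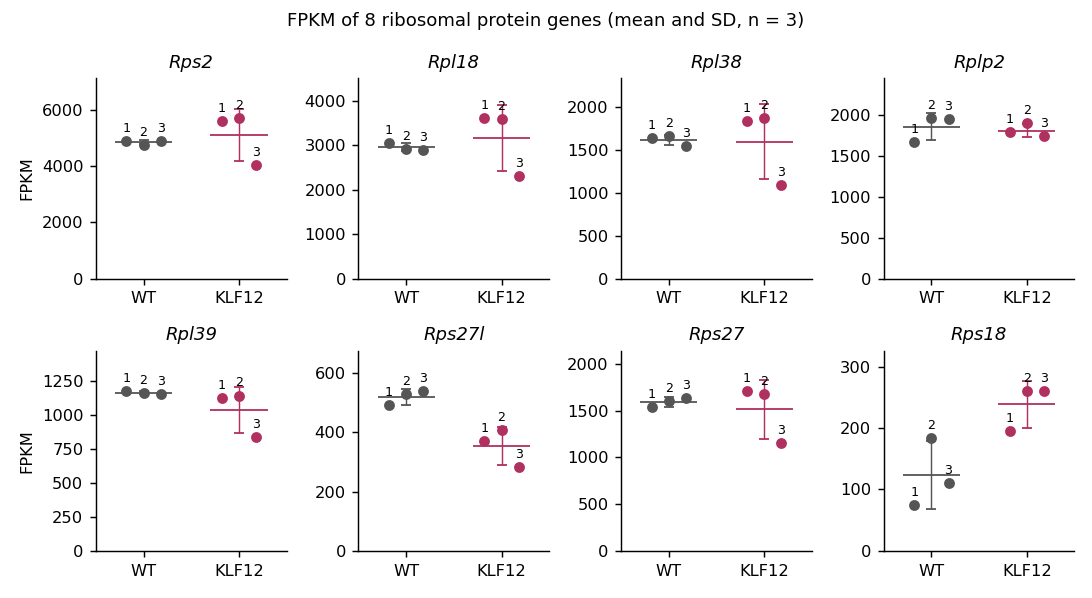
FPKM of 8 ribosomal protein genes on axes that start at 0; points are libraries with their replicate number, lines are group means and bars SD (n = 3). Rps2, Rpl18, Rpl38 and Rps27 show KLF12 1 and 2 above and KLF12 3 below WT, Rplp2 overlaps WT, all KLF12 points of Rps27l and Rpl39 are below WT, and all of Rps18 are above.

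Genes of the family with known roles in embryonic patterning followed the common split and were not called. Rpl38 was at 1640, 1661 and 1548 FPKM in WT and at 1833, 1864 and 1088 FPKM in KLF12. The 2 higher KLF12 libraries and the lower one nearly cancelled, to a log2 difference of -0.06 ± 0.212 (SE; limma adjusted p = 0.958). Rpl24, the gene of the Belly spot and tail mutant, was at 1436, 1390 and 1366 FPKM in WT and at 1596, 1628 and 1079 FPKM in KLF12. Rps19, mutated in Diamond-Blackfan anaemia, was at 1493, 1366 and 1502 FPKM in WT and at 1802, 1754 and 1180 FPKM in KLF12. Both repeat the order of Rpl38, with KLF12 3 the lowest of the 6 libraries.

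Rps7, which has mouse mutants with skeletal and brain defects, was at 1792, 1807 and 1925 FPKM in WT and at 1944, 1976 and 1287 FPKM in KLF12. Rps20, a dark-skin mutant gene, was at 287, 274 and 260 FPKM in WT and at 346, 332 and 216 FPKM in KLF12. Rpl27a, mutated in the sooty foot ataxia mouse, was at 964, 967 and 981 FPKM in WT and at 1128, 1112 and 739 FPKM in KLF12. All 3 had the split, and their limma adjusted p-values were 0.904, 0.917 and 0.997 for Rps7, Rps20 and Rpl27a.

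Rpl5 and Rpl11 form a complex with 5S RNA that holds back MDM2, the p53 ubiquitin ligase, when ribosome assembly stalls. Rpl11 was at 2905, 2801 and 2741 FPKM in WT and at 3177, 3285 and 2187 FPKM in KLF12, the common split. Rpl5 was at 315, 324 and 316 FPKM in WT and at 282, 349 and 225 FPKM in KLF12. Only KLF12 2 was above WT for Rpl5, and its log2 difference of -0.18 ± 0.161 (SE) was not called (limma adjusted p = 0.770). On this scale, which is per kilobase of transcript, Rpl5 was the lower of the pair in every library. Under symbols ending in -ps and a number, 2 pseudogene copies are annotated for Rpl5 and 0 for Rpl11. Copies of either gene under other names were not counted, and how shared reads were assigned is not given. The gap between these rows is therefore uncertain.

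Rps6, the S6 kinase substrate, had a low level in its own row and a high one in a row named as its copy. The Rps6 row held 95.6, 94.1 and 86.3 FPKM in WT and 106, 112 and 76.8 FPKM in KLF12. The row of Rps6-ps4, annotated as a transcribed pseudogene and no member of the family here, held 2293, 2195 and 2347 FPKM in WT and 2638, 2645 and 1812 FPKM in KLF12. Both rows had the common split. Only symbols ending in -ps and a number were counted as copies, so copies under other names, such as Rps3a2 and Rps3a3, are left out. Of the 83 genes, 59 have at least 1 copy named in this way. In all 316 such symbols are annotated, of which 3 had a row in the table. Of these rows, Rpl34-ps1 and Rpl31-ps12 are annotated as protein-coding. The low levels of Rps6, Rps15a, Rpl31, Rpl10, Rpl10a and Rps18, singled out after their values were seen, are uncertain because of such copies.

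Rpsa, also known as the laminin receptor precursor, was at 1894, 1639 and 1677 FPKM in WT and at 2220, 2159 and 1294 FPKM in KLF12. Rps3, a 40S protein at the mRNA entry site, was at 1050, 1052 and 1004 FPKM in WT and at 1258, 1259 and 777 FPKM in KLF12. Both had KLF12 1 and 2 above and KLF12 3 below all WT libraries, with limma adjusted p-values of 0.942 for Rpsa and 0.965 for Rps3.

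The other large log2 differences were not called and overlapped between the groups. Rpl10, needed for the last steps of 60S maturation, was at 137, 110 and 162 FPKM in WT and at 132, 78.0 and 104 FPKM in KLF12 (-0.39, limma adjusted p = 0.544). Rpl27 was at 293, 269 and 273 FPKM in WT and at 208, 298 and 176 FPKM in KLF12 (-0.32, limma adjusted p = 0.591). For both genes 1 KLF12 library lay far from another, and it was KLF12 2 that was low for Rpl10 and high for Rpl27. Rpl35, which sits at the tunnel exit, was at 3279, 3101 and 3196 FPKM in WT and at 3158, 3135 and 2106 FPKM in KLF12, with KLF12 1 and 2 inside the WT range. Rpl10a was at 77.7, 108 and 100 FPKM in WT and at 89.1, 78.0 and 90.6 FPKM in KLF12, within the WT range in all 3.

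Among the positive differences, Rpl28, a 60S protein that budding yeast lacks, was at 2212, 1986 and 2074 FPKM in WT and at 2583, 2646 and 2013 FPKM in KLF12 (0.20, limma adjusted p = 0.736). Unlike the family, it stayed within the WT range in KLF12 3. Rps29, a zinc-binding protein of the 40S head, was at 1354, 1241 and 1145 FPKM in WT and at 1640, 1621 and 1075 FPKM in KLF12 (0.19, limma adjusted p = 0.802). Rps28 and Rpl29, at log2 differences of 0.14 and 0.16, had the split as well. Rps27a, which is made as a fusion with ubiquitin, was at 1090, 1107 and 1104 FPKM in WT and at 1123, 1155 and 724 FPKM in KLF12, one of the 3 lowest deviations in KLF12 3.

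Because the level of the whole family differed by library, each gene was also set against the median of the 80 genes in its own library. On this scale 28 genes had groups that did not overlap, 14 higher (17.5%) and 14 lower (17.5%), where 4.93% and 6.28% of all genes did. Centring on their own median favours the family in this count, so the percentages are not on equal terms. The lower genes were led by Rps27l (-0.56), Rpl27 (-0.32), Rpl35 (-0.21), Rpl39 (-0.18), Rpl5 (-0.18) and Rps27a (-0.16). The higher genes were led by Rpl28 (0.20), Rps29 (0.20), Rpl4 (0.14), Rpl3 (0.14), Rpl23 (0.13) and Rplp0 (0.13). Apart from Rps27l, these offsets within the family were smaller than the shift of the whole family in KLF12 3 (-0.38). Rps18 overlapped between the groups on this scale.

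**Figure D4:**
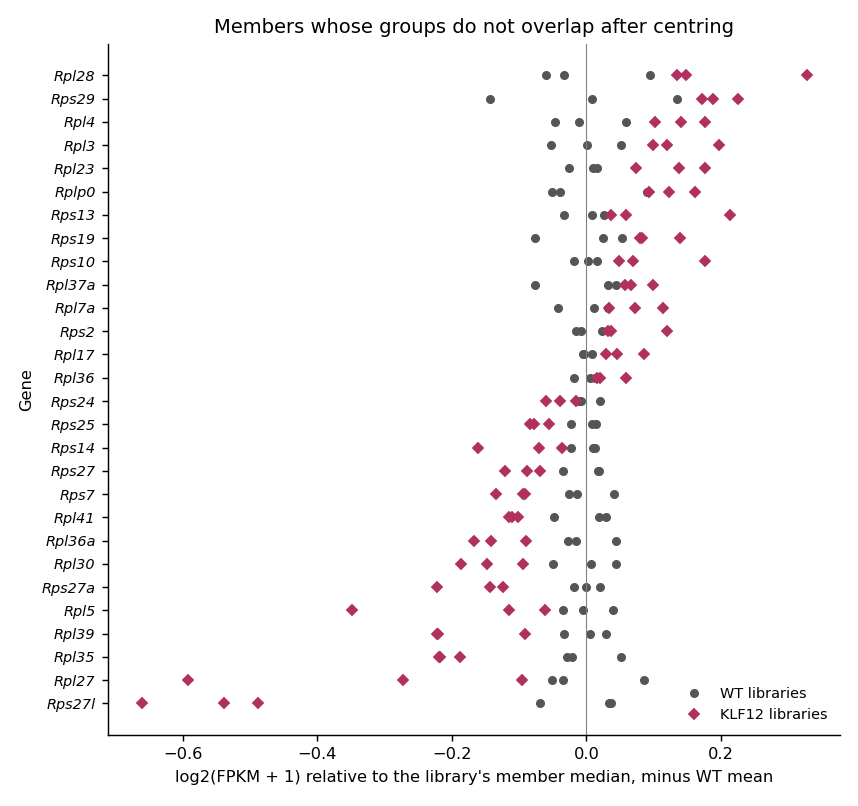
Each row is 1 of the 28 genes whose groups do not overlap after each library is centred on the family's median; grey circles are WT and red diamonds KLF12 libraries, and the x axis is on the log2 scale relative to the WT mean. Rps27l lies farthest left, with a mean of -0.56, and Rpl28 and Rps29 have the largest positive means (0.20 each).

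Without KLF12 3, 17 of 80 genes passed in limma, 16 higher and 1 lower, against 0.744% higher and 1.95% lower over all genes. The higher genes had log2 differences of 0.22 to 0.39. They included Rps29 (0.39, limma adjusted p = 0.0448), Rpl29 (0.38, 0.0371), Rpl23 (0.34, 0.0283), Rpl3 (0.33, 0.0280), Rplp0 (0.29, 0.0401) and Rps2 (0.22, 0.0405). The lower gene was Rps27l. In this comparison Ddx3y, Eif2s3y, Kdm5d and Uty, which are Y-linked, were at 0 in both KLF12 libraries and above 0 in every WT library. KLF12 overexpression and sex composition therefore cannot be told apart in it. Without KLF12 1, or without KLF12 2, 0 of 80 passed, and the median log2 difference turned negative (large subunit -0.08 and -0.09, small subunit -0.06 and -0.08). The direction of the family as a whole thus depended on which KLF12 library was left out. With array weights, which count a library less where it strays from its group, 3 of 80 genes were called higher and 1 lower, against 4.61% and 8.44% of all genes. The higher ones were Rpl28, Rpl3 and Rps29, at 0.30, 0.33 and 0.37 (limma adjusted p = 0.0464, 0.0496 and 0.0418).

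Ribosomal protein mRNAs are short, with a median of 711.5 nt against 2173 nt for all rows, and KLF12 3 differed from the other libraries by transcript length. The Spearman correlation of its deviation from WT with length was 0.363 over 11674 genes, against 0.040 and -0.178 in KLF12 1 and 2 and -0.057 to 0.064 in WT. Within bins of similar length the medians of the family and of other genes still differed. In KLF12 3 the median for genes of 500 to 750 nt was -0.39 over 32 ribosomal protein genes and -0.15 over 876 others. For genes of 1000 to 1500 nt it was -0.39 over 11 and -0.12 over 1620. With each library's length trend removed, large subunit medians were 0.25, 0.17 and -0.24 in KLF12 1, 2 and 3, and small subunit medians 0.28, 0.19 and -0.25. Against the medians before removal, the shift was smaller in KLF12 2 and 3 and larger in KLF12 1. Medians stayed positive in KLF12 1 and 2 and negative in KLF12 3. The part of transcript length in the split was not tested.

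**Figure D5:**
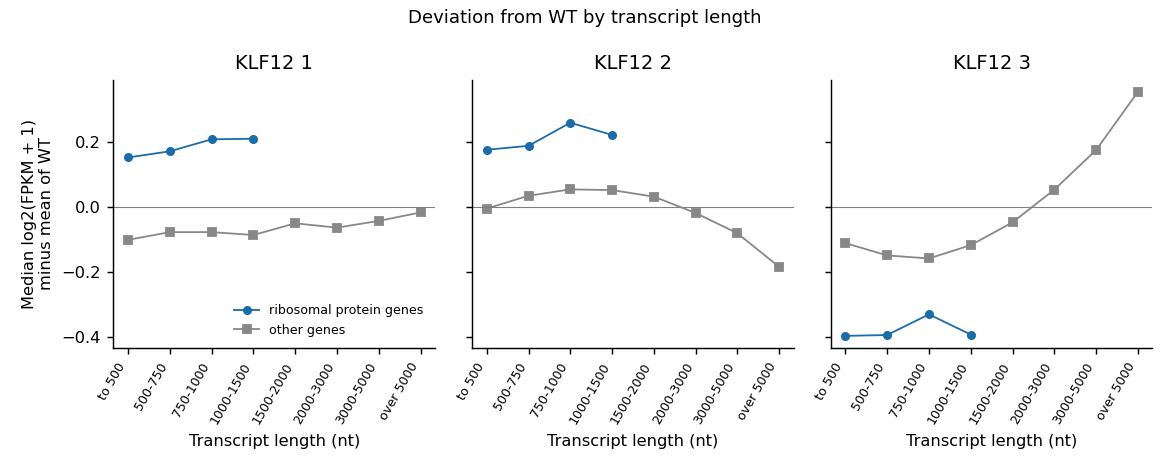
Median deviation from the WT mean, on the log2 scale, of ribosomal protein genes (blue circles) and all other genes tested (grey squares) in bins of transcript length, 1 panel per KLF12 library; bins with fewer than 10 genes are not drawn. The blue points lie above the grey ones in KLF12 1 and 2 and below them in KLF12 3, where they range from -0.33 to -0.40.

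Other parts of the translation machinery did not all share the split. Among 5 further cytosolic ribosome genes outside the symbol rule, 0 were called and 2 had it. Rack1, a scaffold on the 40S head, was among these, at 1594, 1560 and 1512 FPKM in WT and 2013, 1947 and 1289 FPKM in KLF12. Fau, a 40S protein fusion, was at 635, 522 and 650 FPKM in WT and 656, 851 and 563 FPKM in KLF12, and Rps27rt was listed at 0 except for 11.3 FPKM in KLF12 2. Of 17 elongation factor and other TOP mRNA genes tested, 8 had the split, and the median log2 difference was -0.02. Eef1a1, which delivers aminoacyl-tRNA, was among the 8, at 7183, 6563 and 6467 FPKM in WT and 9012, 8359 and 5667 FPKM in KLF12. The 1 gene of that list called, where 0.733% of all genes were, was Vim, the intermediate filament vimentin, at 293, 307 and 313 FPKM in WT and 161, 162 and 114 FPKM in KLF12 (-1.08, limma adjusted p = 0.0158).

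Of 32 ribosome biogenesis factors, 0 were called, which is near the share of 0.733% over all genes. Among them 24 had negative and 8 positive log2 differences, and the median was -0.11. Over all genes tested 6398 differences were negative and 5743 positive. The smallest unadjusted p-values were those of Bop1, a factor of 28S and 5.8S rRNA processing (61.4, 74.0 and 79.7 FPKM in WT; 48.7, 62.4 and 58.9 FPKM in KLF12; limma adjusted p = 0.455), and Nop14, a 40S assembly factor (29.8, 33.6 and 35.2 FPKM in WT; 29.3, 28.3 and 25.4 FPKM in KLF12; limma adjusted p = 0.573). Bop1 was called with array weights (-0.49, limma adjusted p = 0.0251), where 8.44% of all genes were called lower.

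Of 19 genes of mTORC1 and Myc control, 2 rose in limma, against 0.0988% of all genes, 0 fell, against 0.634%, and 0 had the split. Ddit4, an inhibitor of mTORC1, rose from 25.2, 21.9 and 17.1 FPKM in WT to 77.3, 37.9 and 76.7 FPKM in KLF12 (1.48, limma adjusted p = 0.0484). Rps6kb2, an S6 kinase, was listed at 0.6, 0 and 0 FPKM in WT and rose to 1.97, 5.94 and 6.99 FPKM in KLF12 (2.23, limma adjusted p = 0.0453). Both rises were near the threshold and lost the call in 10 alternatives each.

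The mitochondrial ribosome, which is encoded by other genes and translates only mitochondrial mRNAs, was also low in KLF12 3 but was not high in KLF12 1. Of its 78 genes, 67 (85.9%) were below all WT libraries in KLF12 3, against 31.8% of all genes. In 5 (6.41%) KLF12 1 and 2 were both above WT, against 16.4% of all genes. Medians of the deviation from WT were -0.13, 0.12 and -0.36 for its large subunit and -0.13, 0.11 and -0.29 for its small subunit in KLF12 1, 2 and 3. The cytosolic family was high in KLF12 1, where the mitochondrial one was low. Of either, 0 genes were called, which is near the share of 0.733% over all genes.

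Markers of cell types that could differ in ribosome content were set beside the split, and their part in it was not tested. Summed FPKM of 12 primitive erythroid markers was 5132 to 11707 in WT and 1338, 3328 and 4266 in KLF12 1, 2 and 3, lower in all 3. That of 6 neural tube markers was 58.5 to 62.6 in WT and 51.2, 60.8 and 121 in KLF12, highest in KLF12 3, where the ribosomal genes were lowest. The sum of 6 heart markers was 622 to 698 in WT and 581, 766 and 429 in KLF12, lowest in KLF12 3. Myl7 made most of each heart sum, at 354, 336 and 328 FPKM in WT and 357, 482 and 229 FPKM in KLF12. Myl2 was at 128, 126 and 102 FPKM in WT and 52.7, 73.6 and 60.4 FPKM in KLF12. It was called lower (-0.92, limma adjusted p = 0.0359). Nppa and Myh6 were also below every WT library in all 3 KLF12 libraries but were not called. Of the 6 log2 differences of heart markers, 4 were negative and 2 positive. The sum of 6 somite and mesoderm markers was 181 to 187 in WT and 115, 161 and 167 in KLF12. Twist1 was the largest part of each somite sum. All 6 log2 differences of these markers were negative, but in KLF12 3 T and Foxc2 were above every WT library. The sum of 10 yolk sac and visceral endoderm markers was 391, 136 and 64.8 in WT and 314, 438 and 286 in KLF12. For decidua and trophoblast, 6 of 9 markers had a row, with sums of 77.0 to 94.2 in WT and 65.2 to 102 in KLF12. Hand1 made most of each sum, at 71.1, 80.9 and 77.1 FPKM in WT and 96.7, 65.1 and 58.0 FPKM in KLF12. These sums therefore mainly follow 1 gene. Prl3c1, Prl7a2 and Tpbpa had no row, and only Prl2c2 was at 0 in some libraries.

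The split also coincided with Y-linked expression. Ddx3y was listed at 0 in KLF12 1 and 2 and at 6.62 FPKM in KLF12 3, against 1.8, 4.45 and 2.63 FPKM in WT, and Eif2s3y, Kdm5d and Uty were listed at 0 in the same 2 libraries. Library and sex composition cannot be told apart in these 3 samples.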

How the data were processed

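The authors deposited 1 table of FPKM values, rounded to 2 decimals, with a column for each of 6 libraries; CASAVA, HISAT2 2.0.4, RSEM 1.2.8 and mm9 are named without roles, per the submitters' processing notes. How reads shared with pseudogenes were assigned is not given in the sources used here. NCBI gene numbers gave symbols for 16874 of 17741 rows; sequences and their coordinates are from RefSeq on GRCm38.p6, transcript lengths from GENCODE M21. No counts are held, so limma 3.58.1 (R 4.3.3) with a variance trend was run on log2(FPKM + 1) for the 12141 genes averaging 1 FPKM or more, and Benjamini-Hochberg adjusted p under 0.05 was called; this scale understates changes of low genes. The procedure was tested on simulated data.

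The members, lists and tests were chosen with earlier results of these data known. Genes named were the called ones, those with non-overlapping groups, the 3 highest and 3 lowest log2 differences and 3 highest means per subunit, the 3 lowest and 3 highest in KLF12 3, paralogue pairs, members with known developmental or stress roles, and, per list, called genes or the 2 smallest p; genes shown as examples of a centred or reduced comparison were added by its size. Alternatives covered pseudocount, filter, scaling, length trend, variance model, array weights, replicate block and each replicate left out. Not all genes named by this rule are reported here.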

Additional observations from a re-analysis of the deposited data

How the results depend on the processing

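Klf12 was called in every alternative run, with log2 differences of 2.59 to 3.28. The number of ribosomal protein genes called by limma was 0 with another pseudocount, filter, TPM or median-of-ratios scaling, the length trend removed or no variance trend, 1 with quantile normalization, 4 with array weights (Rpl28, Rpl3 and Rps29 higher, Rps27l lower), and 0 to 17 with each replicate left out, 17 without KLF12 3. The difference between groups in large minus small subunit was -0.017 with medians, -0.017 without Rps18 and -0.0088 as a ratio of sums, all chosen after seeing the data; the cause was not tested. Counts over all genes were 17 to 326 with each replicate left out. Ddit4 lost its call under pseudocount 0.1, no filter, TPM, quantile normalization, no variance trend and 5 of 6 omissions of a replicate (limma adjusted p 0.0525 to 0.226), Rps6kb2 under pseudocount 0.1, no filter, TPM, no variance trend, the replicate block and 5 omissions (0.0571 to 0.201), and Vim under no filter, no variance trend and each omitted WT replicate (0.0501 to 0.127). Same-numbered libraries deviated from their group means with correlations of 0.03, -0.11 and 0.04. These values show no sign of pairing by number but cannot exclude it, because other differences between libraries enter the same deviations. With the replicate block 0 ribosomal protein genes and 64 of all genes were called, and Klf12 had a limma adjusted p of 0.00874. Depth limits mainly Rpl39l, Rpl3l and Rpl10l, which were at or below 1.17 FPKM.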
